A study of Mus musculus with 8 samples.

Results

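The 4 arrays described here hold the baseline transcriptome of *Bapx1*-EGFP positive cells from the spleen primordium of *Bapx1* wildtype mouse embryos at E12.5. They were chosen by their genotype label and are 4 of the 8 arrays of the series. The other 4 arrays, of *Bapx1* null cells, are not compared here. The embryos were of strain C57BL/6J;129, and an IRES-EGFP cassette was placed in the 3′ UTR of an otherwise intact *Bapx1* gene, so that the endogenous *Bapx1* regulatory elements drive the reporter. Spleens were dissected and EGFP positive cells were sorted, and the purity of the sorted cells is not given. Each replicate is 1 sorted cell population, and how many embryos it pools is not given. Total RNA was amplified, labelled with biotin and hybridized to single-colour Illumina BeadChips. No genotype or treatment contrast can be drawn from 1 group, so the values are descriptions without a test, and the number of arrays limits their precision.

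The spleen arises from a condensation of mesoderm beside the dorsal pancreas and stomach. Its mesenchyme is patterned by homeobox and other transcription factors, among them *Tlx1*, *Nkx2-5*, *Bapx1* and *Tcf21*, before blood cells colonize it in number. The same mesenchyme lays down matrix, sends growth factors to neighbouring epithelium and later forms the stroma that holds blood and lymphoid cells.

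A probe counted as detected where its detection value, which is 1 minus the detection p, was over 0.95. On the 4 arrays 42.5 to 44.5% of 45281 probes were detected, and 17829 probes (39.4%) were detected on all 4. The dimmest detected signals were 18.4 to 22.9 units per array, and the mean signal was 361.7 to 472.5 units. Of 19057 genes with a probe named for that gene alone, 9835 (51.6%) had at least 1 probe detected on all 4 arrays and are called detected below. The other genes are called not detected, although a probe of theirs may have passed on fewer arrays. Each gene was given by its brightest such probe, as the log2 of the normalized signal. The mean log2 signal of these genes ran between 5.25 and 15.26, with a median of 8.76. A percentile below is the rank of a gene's mean log2 signal among the 9835 detected genes, with 100 at the bright end. Probes differ in how strongly they bind, so these ranks order signals and not RNA amounts. Of the 6056 detected genes with 2 or more probes, 3914 had a further probe that was not detected on all 4 arrays. Detected probes of the same gene can also differ widely in signal. Probe counts are given below for only some of the named genes. The arrays were alike, with a median SD of 0.134 in log2 signal. Replicate 3 stood somewhat apart. Over the 9835 detected genes its correlation with the others was 0.987 to 0.989 and that among the other 3 was 0.992 to 0.995.

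Most promoters of the detected genes were CpG rich, and few held a TATA box. The windows run 250 bases before to 50 bases after the RefSeq start of a gene (GRCm38.p6), and 8002 of the 9835 detected genes (81.4%) had one. The start sites used in these cells were not measured. The TATA box, the site at which TATA-binding protein places the transcription machinery, was searched as TATAAA on the gene's strand, beginning 40 to 20 bases before the start. It was present in 5 of 63 promoters of detected secreted factors (7.94%), against 1.17% of detected genes and 2.22% of all 27025 promoters in the table. Among secreted factors that were not detected it was present in 11.7% of 128 promoters. On the other strand the same letters were present in 0.30% of detected genes. The 5 windows of detected secreted factors follow, with that of the immediate early gene *Fos*, since they include bright, dim and variable genes described below. The capitals mark TATAAA.

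Igfbp4 (chr11:99041206-99041231, plus strand): agggggccggTATAAAgtcccgggag
Slit2 (chr5:47983117-47983142, plus strand): ccggctgctaTATAAAgaccggcggc
Tgfb2 (chr1:186706005-186706030, minus strand): ggggagcacaTATAAAactctgctcc
Kitl (chr10:100015786-100015811, plus strand): gagggagctgTATAAAaagcgctggc
Gdnf (chr15:7810007-7810032, plus strand): gtgagagctcTATAAAtgcatcccca
Fos (chr12:85473847-85473872, plus strand): acagcgcttcTATAAAggcgccagct

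The box began 25 to 33 bases before the start in these 6 genes. Their mean log2 signals ran between 6.95 for *Gdnf* and 13.07 for *Igfbp4*. NK class homeodomain proteins bind cores such as TAAGTG and TGAGTG, which were searched on both strands of the whole window and do not overlap each other. TAAGTG was present in 5.97% of detected genes and in 9.34% of all promoters. TGAGTG was present in 12.9% of detected genes and in 16.3% of all promoters. Of the 5 spleen mesenchyme markers with a promoter in the table, 1 held such a core. It was the TGAGTG of *Nkx2-5*, shown in capitals because *Nkx2-5* is itself an NK homeobox gene of the spleen anlage. A match to these letters is not a measured binding site.

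Nkx2-5 (chr17:26841731-26841756, minus strand): gtattttcttTGAGTGtgtctggctg

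The CpG ratio, the observed CpG count over that given by the C and G content, exceeded 0.6 in 75.2% of promoters of detected genes and in 36.4% of all promoters. It did so in 26.8% of promoters of genes with a named probe that was not detected on all 4 arrays. Sorted by signal into 5 equal bins, the share was 82.8% in the brightest bin and 59.5% in the dimmest. Among promoters of detected matrix genes the share was 47.2% of 89, and among those of detected transcription factors 76.0% of 217.

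**Figure D1:**
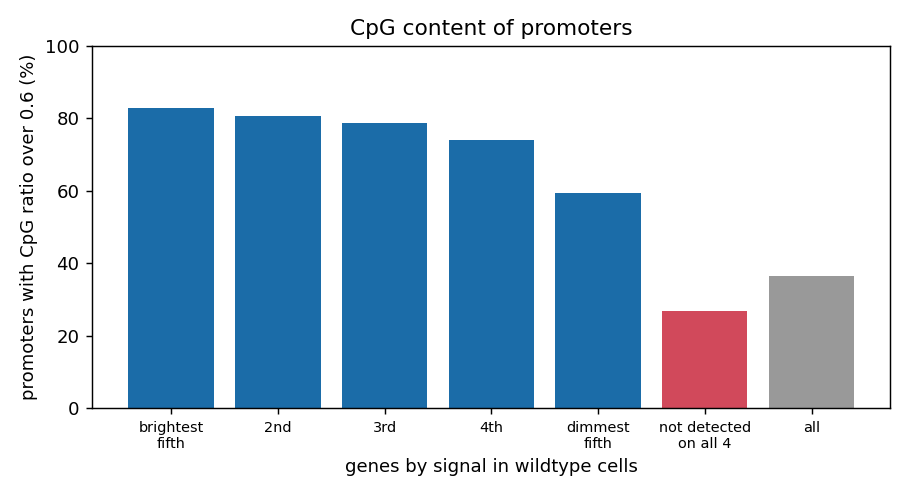
Share of promoters with a CpG ratio over 0.6 (y axis, %) by signal bin of the detected genes, brightest on the left, then for genes with a named probe not detected on all 4 arrays and for all promoters in the table. The share was 82.8% in the brightest bin, 59.5% in the dimmest and 26.8% in genes that were not detected.

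The markers of spleen mesenchyme were all detected, most of them brightly. All 6 markers passed on all 4 arrays, and 5 of the 6 lay in the brightest 25% of detected genes. *Slc40a1*, which encodes the iron exporter ferroportin, had log2 signals of 14.43, 14.44, 14.53 and 14.38 in replicates 1 to 4, at percentile 99.6, although only 1 of its 2 probes was detected. *Nkx2-3*, an NK homeobox gene needed for spleen and gut mesenchyme, had 12.39, 12.30, 12.56 and 12.27 in the 4 replicates. Its other probe was also detected on all 4 arrays but was much dimmer, with a mean of 7.13. *Isl1*, a LIM homeobox gene of splanchnic mesoderm, had 11.64, 11.88, 10.95 and 11.68. Replicate 3 was the lowest for *Isl1* and the highest for both other genes. *Tcf21*, a basic helix-loop-helix factor without which the spleen is lost, varied little, with 10.93, 10.94, 10.89 and 10.94. *Barx1*, which marks stomach and spleen mesenchyme, had 10.63, 10.78, 10.14 and 10.66. *Nkx2-5*, an early regulator of the spleen anlage, was the dimmest marker, with 8.90, 8.88, 9.51 and 9.07.

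Of the other regulators of the anlage, *Hoxa5* was detected, at 11.03 ± 0.27 (SD, n = 4). *Tlx1*, which is required for the spleen to survive, was not detected on any array, with log2 signals of 4.65, 4.65, 4.68 and 4.66. *Wt1* had no probe named for it alone and was not analysed here. *Bapx1* itself, whose current symbol is *Nkx3-2* and whose regulatory elements drove the sorted reporter, had 2 probes, and neither was detected on any of the 4 wildtype arrays. The log2 signal was 4.85, 4.57, 4.60 and 4.67 at the first probe and 4.55, 4.56, 4.79 and 4.49 at the other. These values lay below the dimmest detected signals, which were 5.14 to 5.25 per array, so they give only an upper bound. Where in the transcript the probes lie is not given in the sources used here. All 6 markers of the list were thus detected, while *Tlx1* and *Bapx1* RNA were not detectable with these probes. The list was chosen with earlier results of these data known. Some of its members, such as *Isl1* and *Barx1*, also mark splanchnic or stomach mesoderm. Whether the sorted cells were spleen mesenchyme alone was not tested.

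**Figure D2:**
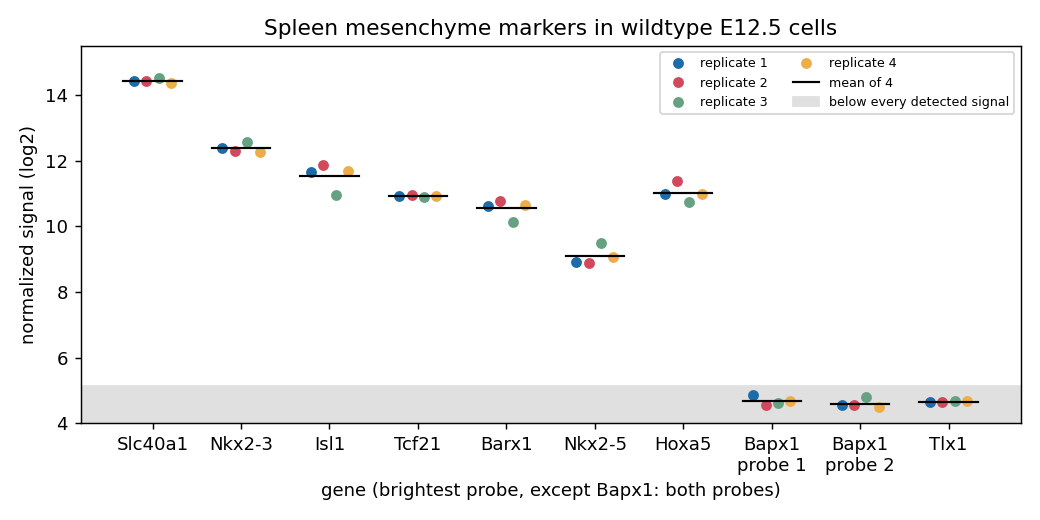
Normalized log2 signal (y axis) of the spleen mesenchyme markers, *Hoxa5*, both *Bapx1* probes and *Tlx1*, with a point per replicate and a line at the mean of 4. The 6 markers and *Hoxa5* lie between 8.88 and 14.53, and the *Bapx1* and *Tlx1* points lie in the grey band below every detected signal.

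The brightest genes belonged to protein synthesis, chromatin and fetal growth. The 20 brightest named genes had mean log2 signals of 14.77 to 15.26 and SDs of 0.01 to 0.12, and 2 genes with placeholder names were passed over. They held 8 ribosomal protein genes (among them *Rpl41*, 15.20, and *Rps29*, 15.04), the translation factor *Eef1a1* at 15.26, and 2 genes of the mitochondrial genome (*ND4*, 15.18, and *CYTB*, 15.17). A further 4 were histone H2A genes, led by *H2ac24* at 15.17, whose near-identical copies may share a probe. The imprinted growth genes *Igf2*, *Cdkn1c* and *Dlk1* were among them as well. *Igf2*, a fetal growth factor, had 15.11, 15.05, 15.11 and 15.09. *Cdkn1c*, an inhibitor of cyclin-dependent kinases, had 14.93, 14.97, 14.87 and 14.88. *Dlk1*, a membrane protein of immature mesenchyme, had 14.91, 14.91, 14.85 and 14.86. These 3 genes hardly varied between the arrays after normalization, which gives every array the same spread of signals and so holds the brightest genes close. The heparin-binding growth factor midkine (*Mdk*, 14.78 ± 0.07) and the tubulin *Tubb5* (14.78 ± 0.01) closed the list with *Rps24*.

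The 4 gene classes differed in the share of members detected, against 51.6% of all genes with a named probe. This 51.6% is also the background for the family and marker list counts below. Matrix genes had the highest share, with 135 of 222 detected (60.8%) and a median percentile of 56.7. Receptors followed with 121 of 221 (54.8%) and a median percentile of 44.4. Of transcription factors 288 of 622 (46.3%) were detected, at a median percentile of 43.7. Secreted factors had the lowest share, with 84 of 259 (32.4%), at a median percentile of 39.7. The mean number of probes per gene was 2.11 for matrix genes, 2.19 for receptors, 1.97 for transcription factors and 1.64 for secreted factors, against 1.83 for all genes, and more probes give more chances of detection. Where every probe of a gene had to be detected, the shares were 35.6% for matrix genes, 26.2% for receptors, 25.7% for transcription factors and 19.3% for secreted factors, against 31.1% of all genes, so that receptors then lay below the share of all genes. Among the 500 brightest genes were 15 matrix genes, 9 transcription factors, 9 secreted factors and 5 receptors.

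**Figure D3:**
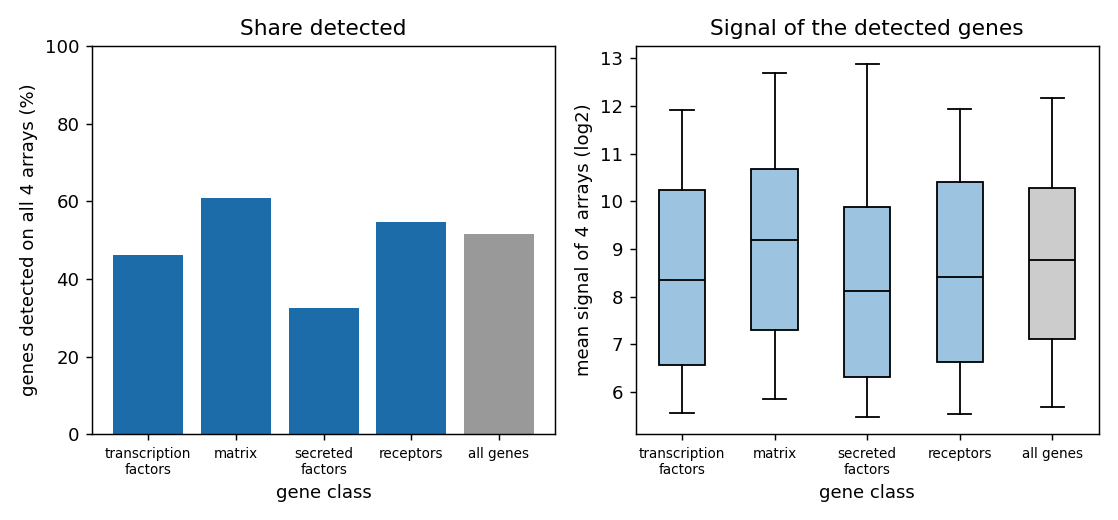
Left, the share of genes detected on all 4 arrays (y axis, %) in each class and in all genes with a named probe. Right, the mean log2 signal of the detected genes, with boxes from the lower to the upper quartile, a line at the median and whiskers from the 5th to the 95th percentile. Matrix genes reach 60.8% and secreted factors 32.4%, against 51.6% of all genes.

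Among homeobox families the TALE genes *Meis1* and *Meis2* were bright, and in 4 other families few genes were detected. TALE proteins act as cofactors of Hox proteins. Of 17 TALE genes 10 were detected (58.8%), near the 51.6% of all genes, at a median percentile of 52.7. The POU, CUT and related homeobox genes described below had a higher median percentile, at 66.9. *Meis1* had 13.46, 13.57, 13.58 and 13.57, the brightest signal of all listed transcription factors, and *Meis2* had 12.82, 12.74, 12.65 and 12.81. *Tgif1*, a corepressor of TGF-beta signalling, followed at 10.48 ± 0.05. *Pbx2*, *Pbx3*, *Pknox1*, *Pknox2*, *Meis3*, *Tgif2* and *Irx3* were detected too, while the remaining Irx genes, *Pbx4* and *Mkx* were not detected on all 4 arrays. In the NK and related group only 7 of 42 were detected, and *Nkx2-3*, *Barx1* and *Nkx2-5* led them. Of the LIM homeobox genes 2 of 12 passed, *Isl1* and the much dimmer *Isl2* (6.67 ± 0.30). Of the paired type and Pax genes 3 of 26 passed, *Alx4*, *Prrx1* and *Gsc*, none with a mean above 6.84. Of the ParaHox and related genes 2 of 15 passed, *Meox1* at 6.34 and *Cdx1* at 5.76. *Pdx1*, the regulator of pancreatic epithelium, was not detected. These 4 families lay well below the background of 51.6%, at 11.5 to 16.7%.

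Hox genes were detected mainly in the low-numbered part of the Hoxa and Hoxb clusters. Of 38 Hox genes with a named probe 15 were detected. *Hoxb5* led with 11.41, 11.48, 11.47 and 11.42, followed by *Hoxa5* with 11.00, 11.38, 10.74 and 10.99 and *Hoxb2* with 11.00, 11.04, 10.91 and 10.81. Hox paralogues are numbered along their cluster, and the low numbers act toward the head end of the body. Among paralogues 2 to 7 of the Hoxa and Hoxb clusters 10 of 12 were detected, at 6.85 to 11.45. Among the same paralogues of the Hoxc and Hoxd clusters 2 of 5 were detected, at 5.33 and 6.61. Of the 2 genes of paralogue group 1 none passed. Among paralogues 8 to 13 of all clusters 3 of 19 were detected, none above 6.18. The grouping by paralogue was chosen after the values were seen.

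**Figure D4:**
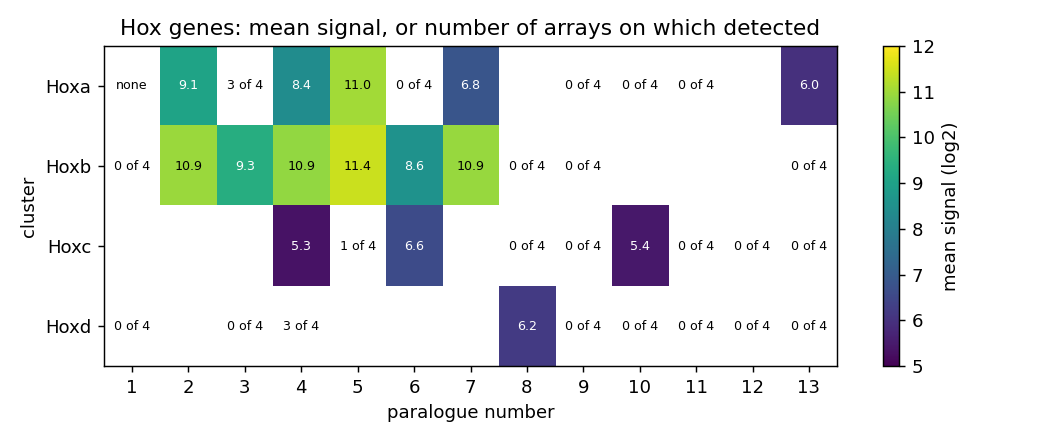
Hox genes by cluster (rows) and paralogue number (columns). Coloured cells give the mean log2 signal of genes detected on all 4 arrays, white cells the number of arrays on which any other gene was detected at its matched probes, "none" stands for no named probe, and empty cells hold no listed gene. The bright cells lie in paralogues 2 to 7 of Hoxa and Hoxb, up to 11.45 for *Hoxb5*.

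Sox, basic helix-loop-helix and zinc finger genes held further bright regulators. *Sox11*, an SRY-related factor of embryonic progenitors, had 13.00, 13.07, 12.77 and 12.99. *Sox12* (11.97 ± 0.11) and *Sox4* (11.96 ± 0.22), which belong to the same SoxC group, came next, and 11 of 22 Sox and Tcf/Lef genes passed. *Sox9*, a regulator of cartilage and of several organ primordia, was detected at 10.92 ± 0.15. *Tcf4* (12.64 ± 0.09), a partner of tissue-specific basic helix-loop-helix proteins, led a family in which 39 of 81 passed, though only 1 of its 3 probes was detected. Zinc finger genes were led by *Snai2*, a repressor linked to the mesenchymal state, with 11.98, 11.95, 11.52 and 11.82. *Gli2*, a mediator of Hedgehog signalling, followed with 11.65, 11.77, 11.84 and 11.73. Both were bright on every array at these probes. The other probe of *Gli2* was also detected on all 4 arrays but was dim, with a mean of 5.68.

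*Adnp* (13.38 ± 0.09), *Zfhx3* (12.14 ± 0.17) and *Satb1* (12.10 ± 0.06), all homeodomain proteins tied to chromatin or growth control, led the POU, CUT and related homeobox genes, of which 17 of 31 were detected. Among the Smad, Runx, Tead, Nfi, Mef2 and Ebf factors 19 of 25 passed, the highest share of any transcription factor family (76.0%). *Cbfb*, the partner of Runx proteins, had a mean of 12.82, *Tead2*, the DNA-binding partner of Yap, 12.59, and *Smad3*, which relays TGF-beta signals, 11.92. The coactivators *Wwtr1* (11.33) and *Yap1* (10.72) were detected as well. Of the ETS genes 15 of 23 passed, led by *Ets1* (12.57, 1 of 4 probes detected) and *Ets2* (11.42). Of the bZIP genes 23 of 41 passed, led by *Atf4* (11.95) and *Xbp1* (11.84), both factors of the stress response of the endoplasmic reticulum.

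The shares of nuclear receptors, forkhead, Gata and T-box genes detected lay below that of all genes, at 37.2, 41.0 and 36.4%. Of the nuclear receptors 16 of 43 were detected, and *Nr2f2*, an orphan receptor of embryonic mesenchyme, was the brightest, with 11.00, 11.04, 11.68 and 11.02. Replicate 3 lay above the other 3 for this gene. Of the forkhead genes 16 of 39 were detected, led by *Foxj3* (11.22 ± 0.07) and *Foxn3* (10.13 ± 0.28). *Foxp3*, known as the regulator of regulatory T cells, came next at 9.82 ± 0.09, but at only 1 of its 4 probes. Of the Gata and T-box genes 8 of 22 were detected, led by *Tbx3* with 10.80, 10.81, 10.86 and 10.49 and by *Trps1* (10.31 ± 0.27). *Gata4*, *Tbx5* and *Tbx20*, genes of heart and anterior mesoderm, were not detected.

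The bright matrix genes included fibrillar collagens, their chaperone, proteoglycans and basement membrane components. Of the 11 fibrillar collagen genes 10 were detected, the highest share among the matrix families (90.9%). *Col3a1*, typical of soft connective tissue, had 13.37, 13.12, 13.34 and 13.37. *Col5a1*, which nucleates collagen fibrils, had 12.69, 12.59, 12.74 and 12.61, and *Col1a1* had 11.34, 10.91, 11.06 and 11.08. These 3 genes were bright on all arrays at these probes. The other probe of *Col3a1* was also detected on all 4 arrays but was dim, with a mean of 6.10. *Col1a2*, chosen after its values were seen, differed between arrays, with 11.90 in replicate 1 and 10.33 to 10.70 in the other 3. *Col2a1*, the cartilage collagen, was dim at 6.71 ± 0.23. *Serpinh1*, the collagen chaperone of the endoplasmic reticulum, was the brightest matrix gene, with 14.11, 14.23, 14.25 and 14.16.

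*Tgfbi*, a secreted protein that links collagen to integrins, had 14.03, 14.09, 14.13 and 14.07 and led the glycoproteins, of which 32 of 61 were detected. The heparan sulphate proteoglycans *Gpc3* (13.88 ± 0.10), which restrains growth signals, and *Gpc1* (13.62 ± 0.09) led a family in which 17 of 37 passed. Of the small leucine-rich proteoglycans, *Bgn* had 11.53 ± 0.11. In the basement membrane *Agrn*, the heparan sulphate proteoglycan agrin, had 13.74, 13.69, 13.74 and 13.59. *Nid1* (11.68), which bridges laminin and collagen IV, *Lama1* (11.24) and *Col4a1* (11.39) were bright too. *Lama4*, *Lamb3* and *Lamc3* were not detected on all 4 arrays, in a family in which 15 of 20 passed. *Col26a1* (12.31 ± 0.20) and *Col16a1* (11.55 ± 0.16) led a list of FACIT, transmembrane and other remaining collagens, of which 10 of 13 were detected. Of matrix enzymes and inhibitors 41 of 63 passed, with *Sulf2*, an extracellular sulphatase, at 12.70 and the gelatinase *Mmp2* at 12.56 after *Serpinh1*.

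The secreted factors held a few very bright genes and many that were not detected. IGF ligands and binding proteins were the brightest family, with 7 of 10 detected and a median percentile of 86.7. *Igfbp5*, which binds IGFs in the matrix, had 14.44, 14.63, 14.52 and 14.60 after *Igf2*, and *Igfbp4* had 13.15, 12.95, 13.14 and 13.04. *Mdk* had a relative in *Ptn*, pleiotrophin, with 13.24, 13.22, 13.17 and 13.22, at 1 of its 2 probes. The growth factors of this pair and of the IGF family held the bright end of the class. *Cxcl12*, the chemokine that retains blood progenitors in stroma, had 12.36 ± 0.13, at 2 of its 5 probes, while only 5 of 32 chemokine genes passed. *Vegfa*, the main growth factor of endothelium, had 12.03, 12.07, 12.40 and 12.21. *Vegfb* (10.32) and *Vegfc* (9.50) were dimmer, and *Pgf* was not detected.

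The Wnt genes showed a bright antagonist and few detected ligands. Only 2 of 19 Wnt ligands were detected, *Wnt5a* with 11.26, 11.02, 11.19 and 11.09 and *Wnt5b* at 8.56 ± 0.19. Both are ligands known for beta-catenin independent signalling. *Sfrp1*, a secreted inhibitor that binds Wnt proteins, had 12.87, 13.03, 12.87 and 12.79, and 7 of 15 antagonists and R-spondins passed, with *Sfrp2* (9.88) and *Rspo3* (8.86) next. Of the Wnt receptors 15 of 22 passed, led by the Wnt5a coreceptor *Ryk* (11.88 ± 0.01), *Fzd1* (10.28 ± 0.09) and *Ror2* (10.15 ± 0.09). Of 7 response genes 4 passed, with *Axin2* at 9.65, 9.64, 9.69 and 9.35. *Sp5* and *Lef1* were not detected on all 4 arrays.

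No Hedgehog ligand was detected on all 4 arrays, and 3 of 6 receptors were. Of the 3 ligands *Shh* had no detected probe and *Ihh* was detected on 1 array. The signal transducer *Smo* had 10.30, 10.05, 10.39 and 10.20 and lay at percentile 73.9, with all 4 of its probes detected, while the receptor and target *Ptch1* had 7.52, 8.26, 7.51 and 7.77. *Gli1* and *Hhip*, which rise with Hedgehog signalling in many tissues, were not detected. *Cdon*, a coreceptor, was detected at 7.97 ± 0.26.

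For BMP and TGF-beta signalling most receptors and a minority of ligands were detected. Of the ligands 9 of 30 passed, none in the brightest 25% of genes, led by *Bmp4* with 9.30, 9.13, 8.82 and 8.44 and *Tgfb2* with 8.65, 8.91, 8.35 and 8.80. *Bmp4* was detected at 1 of its 2 probes. Of the receptors 11 of 14 passed, at a median percentile of 70.4. *Tgfbr1* had 12.45, 12.53, 12.28 and 12.45. *Bmpr2* (11.91 ± 0.14) and *Bmpr1a* (11.84 ± 0.08) followed. Of the extracellular antagonists *Twsg1* (11.98) and *Fstl1* (11.41) were the brightest, and *Nog* and *Fst* were not detected on all 4 arrays. The Id genes, which respond to BMP, were all detected, with *Id1* at 9.63, *Id2* at 9.41 and *Id4* at 8.41. *Smad6*, *Smad7* and *Bambi* were not detected on all 4 arrays.

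In FGF signalling a minority of ligands was detected, and most feedback genes were. *Fgf10*, a mesenchymal signal to epithelium, had 8.82, 9.61, 9.21 and 9.16 and led the 6 of 22 ligands detected. *Fgfr2* had 12.06, 12.20, 11.94 and 11.92, at 2 of its 4 probes, while *Fgfr1* was dim at 5.97, at 1 of its 2 probes, and *Fgfr3* and *Fgfr4* were not detected. Among feedback genes 7 of 9 passed (77.8%, against 51.6% of all genes), but at a median percentile of only 19.9. *Dusp6*, a phosphatase of ERK, had 11.89, 11.95, 11.84 and 11.91, and *Spred1* and *Il17rd*, inhibitors of the same pathway, had 11.22 ± 0.08 and 10.51 ± 0.16. *Etv4*, *Etv5*, *Spry4* and *Spry2* were detected as well but were dim, at or below that median. *Spred2* and *Spred3* were detected on 1 array each.

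Other receptors were led by a thrombin receptor, receptor tyrosine kinases and the growth hormone receptor. *F2r*, the thrombin receptor, had 13.97, 14.02, 13.88 and 13.95 and was the brightest receptor listed. *Axl*, a receptor tyrosine kinase, had 12.70, 12.64, 12.68 and 12.55, and *Pdgfra*, the PDGF receptor of mesenchymal progenitors, had 12.33, 12.49, 12.39 and 12.43. *Axl* and *Pdgfra* were each detected at 1 of 2 probes. *Igf2r*, which clears Igf2, was detected at 11.69 ± 0.07. The growth hormone receptor *Ghr* (12.17 ± 0.09) led the cytokine receptors, of which 14 of 33 passed. *Lpar1* (11.49) and *Ednrb* (11.49) followed *F2r* among the G protein coupled receptors, of which 22 of 42 passed. Of the axon guidance receptors 18 of 31 were detected, led by *Robo1* (11.94 ± 0.13), *Ephb4* (11.42 ± 0.07) and *Neo1* (11.03 ± 0.18). *Slit2*, a ligand of Robo receptors, had 11.57, 11.66, 11.43 and 11.64. *Efna5* (12.71 ± 0.11, 1 of 2 probes detected) was the brightest ephrin.

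Integrins were led by *Itgb5* (11.63), *Itga9* (11.31) and *Itga8* (10.40), and 12 of 25 were detected. The Notch receptors *Notch3* (10.16), *Notch1* (9.69) and *Notch4* (8.36) passed, with the ligand *Jag1* at 10.13 and the targets *Hes1* at 9.62 and *Hey1* at 8.57. *Notch2*, *Jag2* and *Dll4* were not detected on all 4 arrays. Retinoic acid genes were detected in 7 of 11 cases but stayed dim, at a median percentile of 18.4. *Rarb*, a receptor and target, was the brightest of them at 8.73 ± 0.20. *Aldh1a2*, which makes retinoic acid in mesoderm, was among those detected.

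Stromal genes that later organize spleen and lymph nodes were partly detected, in 6 of 12 cases. *Cxcl12* was bright, as above. *Vcam1*, an adhesion molecule of stroma, was detected at 8.97 ± 0.15, *Cxcl13*, the B cell chemokine, at 7.60 ± 0.23 and *Kitl*, the stem cell factor, at 7.39 ± 0.23. *Vcam1* was detected at 1 of its 4 probes and *Kitl* at 1 of its 3. *Ltbr* and *Icam1* passed as well. *Ccl19*, *Ccl21a*, *Il7* and *Tnfsf11*, which organize lymphoid tissue, were not detected on all 4 arrays.

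Markers of other cell types were dim or not detected, with exceptions. The shares detected were 0.0% for hepatocyte, 22.2% for pancreatic, 30.0% for epithelial and 22.2% for skeletal and cardiac muscle markers, against 51.6% of all genes. In bulk RNA fewer cells of a type and less RNA per cell cannot be told apart. Of 8 hepatocyte markers none was detected on all 4 arrays. Of 9 pancreatic epithelium markers 2 passed, *Cpa1* (7.08 ± 0.26) and *Prox1* (5.45 ± 0.13). A further marker of this list was detected on replicates 1, 2 and 4 but not on replicate 3. The log2 summed signal of the list was 9.36, 9.54, 8.39 and 9.39 in replicates 1 to 4. Of 10 markers of gut and general epithelium 3 passed, led by *Krt8* (6.57 ± 0.41), while *Epcam*, *Cdh1*, *Foxa2* and *Sox2* did not. Of 9 markers of skeletal and cardiac muscle 2 passed, neither above 5.72. The log2 of the summed signal was 7.57 to 8.95 for the hepatocyte list, 8.39 to 9.54 for the pancreatic list and 8.35 to 8.71 for the epithelial list. The muscle list had 7.45 to 7.73. The muscle, hepatocyte and epithelial lists had the lowest sums on every array, although the lists differ in length. In replicates 1 and 4 the pancreatic list lay above the macrophage list given below.

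Smooth muscle, cartilage, mesothelium and neural lists passed in part. Of the smooth muscle and pericyte markers 6 of 10 passed. *Acta2*, smooth muscle actin, had 11.08, 11.61, 10.83 and 10.64, and *Des* (9.92), *Kcnj8* (9.05) and *Rgs5* (8.30) followed, but *Tagln*, *Myh11* and *Cnn1* were not detected on all 4 arrays. Of 8 cartilage markers 5 passed, with *Sox9* and *Sox5* (10.45) bright and *Acan* and *Matn1* not detected. Of 7 mesothelium markers 4 passed, led by *Upk1b* (8.16 ± 0.47) and *Upk3b* (7.44 ± 0.30). Of 7 neural markers 3 passed, with *Gap43*, a growth cone protein, bright at 11.74 ± 0.15, while *Ret* and *Tubb3* were not detected.

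Blood and endothelial markers were detected in part and varied between the replicates. Of 9 erythroid markers 4 passed, all of them globins. The embryonic globin *Hbb-y* had 11.30, 9.87, 11.56 and 9.31, and *Hba-a1* had 10.05, 9.56, 10.26 and 7.93. Both were lowest in replicate 4, and the log2 summed signal of the erythroid list was 12.01, 10.97, 12.38 and 10.17. *Gata1* and *Alas2* were not detected on all 4 arrays, and globin copies may share probes. Of 5 megakaryocyte markers 2 passed, *Pf4* with 10.36 in replicate 2 and 9.36 ± 0.68 over the 4 and *Gp9* at 5.66. Of 11 macrophage and leukocyte markers 3 passed, *Lyz2* (7.87), *Adgre1* (6.50) and *Csf1r* (6.31), and *Ptprc* and *Spi1* were not detected. Of 12 endothelial markers 4 passed, led by *Egfl7* (9.33 ± 0.30) and *Tek* (8.06 ± 0.08).

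Replicate 2 had the highest summed signal for 8 of the 12 lists of other cell types, among them endothelium, megakaryocytes, macrophages, hepatocytes, mesothelium and smooth muscle. On it 9 of the 12 endothelial markers were detected, against 5 on each of replicates 1, 3 and 4. *Emcn*, an endothelial sialomucin, had 5.31, 7.04, 5.84 and 5.31, and *Esam*, a junction protein, had 6.09, 7.37, 6.23 and 5.98. Both stood out in replicate 2, as did *Pf4*. The summed signal was 10.20, 10.78, 10.47 and 10.10 in log2 for the endothelial list, 9.27, 9.93, 9.33 and 9.36 for the macrophage list and 9.36, 9.86, 9.06 and 9.23 for the mesothelium list. The part of these cell types in other values was not tested.

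Immediate early genes and globins were among the genes that varied most between the 4 arrays. Of the 9835 detected genes 162 (1.65%) had an SD over 0.5 in log2 signal and 13 an SD over 1. The first count depends on the scaling, and was 80 with an offset of 50, 415 without normalization and 1821 with median absolute deviation scaling, which the study's methods name. The classes held 8 transcription factors of 288, 2 matrix genes of 135, 3 secreted factors of 84 and 4 receptors of 121 with such an SD, or 2.78, 1.48, 3.57 and 3.31% against 1.65% of all. *Fos*, an immediate early gene that rises within minutes of cell stress or growth signals, varied most, with 6.66, 7.68, 11.40 and 9.47. *Egr1*, another immediate early gene, had 9.08, 9.62, 12.45 and 10.31. Both were highest in replicate 3 and lowest in replicate 1. *Gdnf*, the ligand of enteric neural crest cells, had 5.71, 8.13, 6.91 and 7.07, at 1 of its 2 probes. The globins *Hbb-bh1* (6.97 ± 1.37), *Hba-x* (7.16 ± 1.15), *Hbb-bs* (8.37 ± 1.06) and *Hbb-bt* (7.92 ± 1.06) were among the 15 most variable genes with *Hbb-y* and *Hba-a1*, and all 6 were lowest in replicate 4.

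Of the 6 other variable genes, 4 split with 2 arrays above the other 2 at their brightest probe. *Hnrnpa3*, a splicing factor, had 8.32, 5.31, 5.84 and 8.13 at the only detected of its 3 probes, so that replicates 1 and 4 lay above replicates 2 and 3. *Ndufb10*, a subunit of mitochondrial complex I, ran the other way, with 8.76, 10.60, 10.86 and 8.81. Its other probe was also detected on all 4 arrays and did not share this pattern, with 9.79, 9.25, 9.52 and 9.92, so the split was seen at 1 of its 2 probes. *Tedc2* (5.20, 7.53, 7.70 and 5.69) and *Gramd4* (5.77, 7.56, 7.85 and 5.86) had the same split as the brighter *Ndufb10* probe, each at its only probe. *Zfp979* was low in replicate 1 alone, with 5.56 there and 7.35 to 7.83 elsewhere, and *Tubb1*, the tubulin of platelets, was low in replicate 3 at the only detected of its 3 probes, with 5.26 there and 6.97 to 7.55 elsewhere. Replicate 3 differed from the median of the 4 arrays by over 0.5 for more genes than the others, with 188 above and 276 below, against 21 to 115 above and 37 to 71 below in the other 3.

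RNAs of the X and Y chromosomes differed between the replicates. *Xist*, the RNA of the inactive X chromosome, had 11.58, 12.05, 10.97 and 12.49. The Y-linked *Eif2s3y* had 10.24, 10.08, 10.92 and 8.62, and *Kdm5d* had 8.20, 8.19, 8.59 and 6.54. Both kinds were detected on all 4 arrays, with replicate 3 at the low end for *Xist* and the high end for these Y-linked genes, and replicate 4 at the opposite ends.

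**Figure D5:**
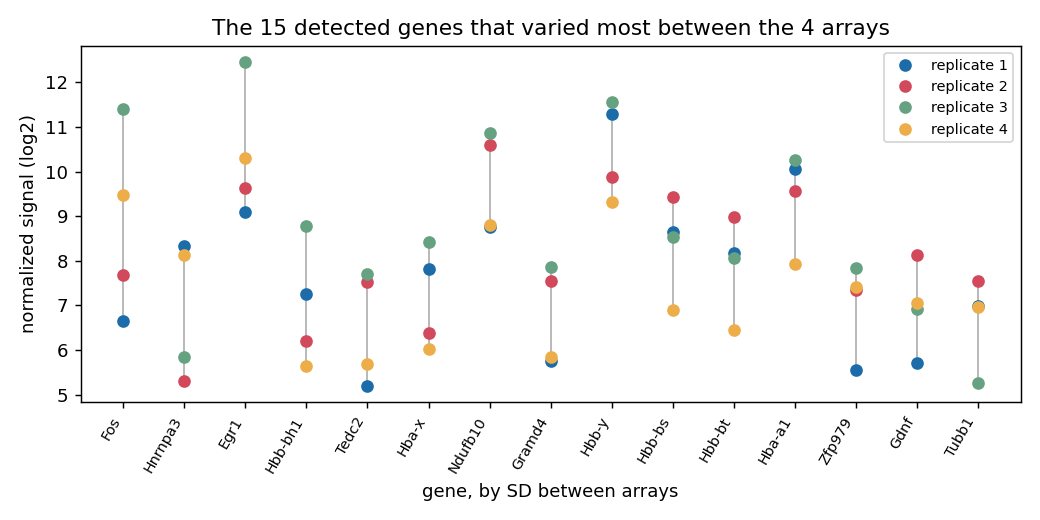
Normalized log2 signal (y axis) of the 15 detected genes with the largest SD between the 4 arrays (x axis), with a point per replicate and a grey line over the range. *Fos* covers 6.66 to 11.40, and the 6 globins have their lowest point in replicate 4.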

How the data were processed

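RNA of 4 *Bapx1* wildtype samples was read on Illumina MouseWG-6 BeadChips. GenomeStudio gave the deposited intensity values, as a background-subtracted signal per probe with no scaling of arrays to each other. The detection p-value columns were deposited as 1 minus p. The log2 value table deposited by the authors subtracts a probe baseline of unstated source and served to name probes and as an alternative. It was joined to the signal table by profile over the 8 arrays, which matched 34536 of 45281 probes, including all 17829 detected on all 4 wildtype arrays. A gene without such a probe counts as not detected.

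Signals of the 4 arrays were normalized by neqc (offset 16, limma 3.58.1, R 4.3.3), with the steps tested on simulated data. Gene lists held 1626 entries, of which 1497 had a named probe. Named are the spleen markers, *Bapx1*, the 20 brightest genes, the 10 brightest of each class, the 3 brightest of each family (in families of up to 25 members also others by status), the 4 brightest of each marker list and the 15 of largest SD. Members and lists were chosen with earlier results of these data known. Promoters are from RefSeq. The null arrays served only the probe join and 1 alternative. Slide and scan are not given in the sources used here.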

Additional observations from a re-analysis of the deposited data

Results flagged for a closer look

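In 11 of the 228 named genes 1 array stood apart from the other 3, by a gap that took up most of the range of the 4 values (Dixon's ratio at the 95% level), and chance marks about 1 in 20 groups of 4. Replicate 1 was low for *Meis1* (13.46, others 13.57 to 13.58). Replicate 2 was low for *Col3a1* (13.12, others 13.34 to 13.37) and high for *Ror2* (10.29, others 10.09 to 10.11) and *Col2a1* (7.06, others 6.56 to 6.61). Replicate 3 was high for *Irf3* (11.68, others 11.38 to 11.42) and *Nr2f2* (11.68, others 11.00 to 11.04) and low for *Zfp521* (10.83, others 11.33 to 11.42). Replicate 4 was low for *Tbx3* (10.49, others 10.80 to 10.86), *Axin2* (9.35, others 9.64 to 9.69), *Lyz2* (7.58, others 7.94 to 7.97) and *Uty* (5.85, others 6.23 to 6.27). All values are log2 signals.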

How the results depend on the processing

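No paired analysis was possible because only 1 group was described. With a detection value over 0.99 the median percentile was 44.8 for transcription factors, 43.6 for secreted factors and 51.3 for receptors. Where every probe of a gene had to be detected, 5921 genes passed, with 160 transcription factors, 79 matrix genes, 50 secreted factors and 58 receptors. With the mean of all detected probes the median percentile was 42.5 for transcription factors and 41.2 for secreted factors, 13 of the 20 brightest genes were shared, 84 of the 228 named genes moved by over 1 SD and 1 by 43.7 percentile points. Genes with an SD over 0.5 numbered 415 without normalization, 80 with an offset of 50, 1821 with median absolute deviation scaling and 301 in the deposited value table, against 162 as designed. Leaving out each replicate gave 9912 to 10008 genes, 111 to 226 genes with an SD over 0.5, and median percentiles of 40.8 to 43.8 for transcription factors, 56.2 to 57.5 for matrix genes, 39.8 to 40.7 for secreted factors and 41.5 to 45.2 for receptors, and moved a named gene by up to 12.2 percentile points. With detection on at least 3 arrays 10310 genes passed. Normalization over all 8 arrays lowered the median named gene by 0.10 in log2 and moved no percentile of a named gene by over 0.36. Signal over background limits the dim genes: 14 of the 228 named genes were not detected at a detection value over 0.99. Neither the cause of these shifts nor the hybridization strength of probes was tested.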

Other observations

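Some imprinted genes were among the brightest. This list was chosen after its values were seen, so its brightness supports nothing. Of 24 imprinted genes with a named probe 17 were detected (70.8%), against 51.6% of all genes, 9 of them in the brightest 25% and the dimmest at 6.00. Beside *Igf2*, *Cdkn1c* and *Dlk1* it held *Grb10*, an adaptor that restrains insulin and IGF receptors, with 14.51, 14.46, 14.28 and 14.52. The summed signal of the list was 17.37, 17.37, 17.31 and 17.35 in log2 after normalization. Normalization gives every array the same spread of signals, so the closeness of sums led by the brightest genes was largely set by it. Before normalization the signal of *Igf2* was 39241, 30606, 35382 and 33962 units in replicates 1 to 4.

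Immediate early and dissociation genes, also chosen after their values were seen, differed between the replicates. Of 16 genes 9 were detected on all 4 arrays, and 9, 10, 13 and 13 were detected on replicates 1 to 4. Their summed signal was 12.07, 12.21, 13.76 and 12.45 in log2, highest in replicate 3. *Dusp1*, a phosphatase of stress kinases, had 9.63, 9.91, 10.49 and 9.94, and *Klf6* had 10.68, 10.67, 10.71 and 10.41. The globins, chosen in the same way, had summed signals of 12.20, 11.59, 12.48 and 10.27. Whether time after dissection or the sort bears on these values was not tested. Of the 17829 probes detected on all 4 arrays, 2733 carry no gene name here.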
